A study of Mus musculus with 2 samples.

Results

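The G2/M and mitosis genes described here are 36 genes whose products carry a cell from the end of DNA replication through chromosome segregation to the separation of the daughter cells. They were taken as a named list, and all 36 were among the 9127 gene symbols listed in both deposited count tables. The tables came from dissociated tumours of C57BL/6 mice, with 1 droplet library of wild-type (WT) mice and 1 library of mice labelled Cdh-cre Myct1 fl/fl. The series title spells the driver Cdh5-cre, which places Cre recombinase under the promoter of the endothelial cadherin gene, so that the floxed Myct1 allele is targeted in endothelial cells. The second genotype is called the knockout here. Each library pooled the tumours of 4 mice. The sources used here name neither the tumour model nor the Cre status of the WT mice. With 1 library a genotype there are no replicates and no test. The intervals below are 95% intervals for counting error only, and genotype, pool, library and dissociation cannot be told apart.

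Entry into mitosis is driven by the kinase CDK1 bound to cyclin A or cyclin B, with further kinases of the Aurora and Polo families. The spindle checkpoint holds chromosomes until all are attached, and the anaphase-promoting complex then marks cyclin B and securin for destruction. Transcripts of these genes accumulate in late S, G2 and M phase and are low in resting cells, so in a tissue they mark dividing cells, and in vessels they mark endothelial proliferation. Some members, such as Stmn1, Hmgb2, Bub3 and the Cks genes, are also transcribed outside mitosis.

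Cells were assigned to 4 classes by detected marker genes. The endothelial class held 520 WT and 298 knockout cells, with medians of 13 and 12 of 14 endothelial markers detected and a median of 0 fibroblast or mural markers. The mural class (pericytes and other contractile cells around vessels) held 96 and 25 cells, and the fibroblast class 2705 and 115 cells. Cells positive for the keratins Krt8 and Krt18 numbered 2709 and 5904. Median depth was 6219 and 7273.5 UMIs (unique transcript molecules) in endothelial cells and 14817 and 16582 UMIs in keratin positive cells. Myct1 was detected in 381 of 520 WT endothelial cells, at 246 CPM (counts per 1000000 UMIs of the summed class), and was not listed in the knockout table. The libraries shared 218 cell barcodes, 2.004% of WT and 2.04% of knockout barcodes. Shared barcodes were 39 of the 115 knockout fibroblasts (33.9%) but 3 endothelial cells in each library, so fibroblast results are given with and without them.

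The promoters of many G2/M genes are known to carry the cell cycle genes homology region, with the letters TTTGAA or TTCGAA, bound by the DREAM and MYB-MuvB complexes, often next to CCAAT boxes bound by NF-Y. RefSeq promoter windows of 300 bases (250 before and 50 after the start, GRCm38.p6) were found for 30 of the 36 members. The letters TTTGAA or TTCGAA, on either strand, were in 24 of the 30 windows (80%), against 19.4% of the windows of 27025 genes. Within 50 bases of the start they were in 23 windows (76.7%), against 5.29% of all windows. CCAAT, on either strand, was in 26 windows (86.7%), against 37.9%, and both kinds of letters were in 23 windows (76.7%), against 7.70%; a base that 2 motifs share was counted for both. A match is a run of letters and not a measured binding site. The 4 windows below belong to the motif-holding members with the most endothelial UMIs and are shown because they include the member with the highest endothelial ratio (Ube2c) and the one with the second lowest (Bub3). They run 5′ to 3′ in the direction of the gene, with TTTGAA or its reverse complement in capitals.
Ube2c (chr2:164769679-164769978, plus strand): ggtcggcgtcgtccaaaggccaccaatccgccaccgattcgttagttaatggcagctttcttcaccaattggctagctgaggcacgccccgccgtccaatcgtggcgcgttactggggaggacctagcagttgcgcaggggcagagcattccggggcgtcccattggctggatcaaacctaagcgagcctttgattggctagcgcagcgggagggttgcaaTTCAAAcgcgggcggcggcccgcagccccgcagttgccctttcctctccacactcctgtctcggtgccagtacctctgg
Hmgb2 (chr8:57511593-57511892, plus strand): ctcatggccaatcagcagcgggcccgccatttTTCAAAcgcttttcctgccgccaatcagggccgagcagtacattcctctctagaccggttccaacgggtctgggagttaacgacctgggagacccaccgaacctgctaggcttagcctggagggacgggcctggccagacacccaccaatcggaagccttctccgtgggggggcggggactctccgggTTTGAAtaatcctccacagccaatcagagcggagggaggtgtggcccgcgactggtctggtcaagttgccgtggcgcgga
Bub3 (chr7:131560120-131560419, plus strand): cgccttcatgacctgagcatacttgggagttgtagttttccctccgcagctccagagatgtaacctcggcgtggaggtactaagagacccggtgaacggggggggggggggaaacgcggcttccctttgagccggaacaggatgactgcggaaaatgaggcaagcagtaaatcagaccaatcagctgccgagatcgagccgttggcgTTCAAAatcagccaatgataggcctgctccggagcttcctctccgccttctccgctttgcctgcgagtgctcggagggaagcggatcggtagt
Cks1b (chr3:89418242-89418541, minus strand): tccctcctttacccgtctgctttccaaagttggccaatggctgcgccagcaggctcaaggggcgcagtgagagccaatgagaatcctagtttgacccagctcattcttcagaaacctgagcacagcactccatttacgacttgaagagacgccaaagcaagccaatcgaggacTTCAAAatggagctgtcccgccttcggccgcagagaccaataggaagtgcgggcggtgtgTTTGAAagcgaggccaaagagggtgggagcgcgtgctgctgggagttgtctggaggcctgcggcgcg
The letters stood at position -29 from the start in Ube2c, at -218 and -30 in Hmgb2, at -43 in Bub3 and at -77 and -17 in Cks1b. In 4 further members, the 26 bases around the site nearest the start are shown. Cenpa, Kif22 and Prc1 are each the most counted motif holder of a role group with no window above, and Cdk1, from the group of Cks1b, is shown as the kinase gene itself.
Cdk1 (chr10:69352912-69352937, minus strand): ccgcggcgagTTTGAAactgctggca
Cenpa (chr5:30666892-30666917, plus strand): cgggtgatttTTTGAActgctggcga
Kif22 (chr7:127042422-127042447, minus strand): gccccggtaaTTCAAAagagagaagc
Prc1 (chr7:80294436-80294461, plus strand): tctggctcggTTTGAAttccgcgggg
The 24 members with them had a median endothelial log2 ratio, knockout over WT, of 1.21 (0.26 to 2.39). The 6 without them (Ccnb1, Cks2, Birc5, Cenpe, Nusap1 and Tacc3) had a median of 1.70 (0.91 to 2.26).

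In endothelial cells all 36 members had a higher level in the knockout library than in the WT library. All 36 were measured, meaning at least 20 UMIs over both libraries. A ratio of at least 1.5-fold up was reached by 33, and of at least 1.5-fold down by 0. Over all 8122 genes measured in the same cells, 11.6% were that much higher and 35.4% that much lower. The members' median log2 ratio was 1.27, with a range of 0.26 to 2.39, against a median of -0.33 over all measured genes. The counting interval of 34 members lay wholly above 0. Bub1 and Anln were the others. These ratio intervals take each UMI as an independent count and leave out the spread between cells. The 5 richest cells held 27.8% of member UMIs in WT and 19.8% in knockout endothelial cells. In keratin positive cells, where the driver is not meant to be active, the members' median log2 ratio was 0.18.

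**Figure D1:**
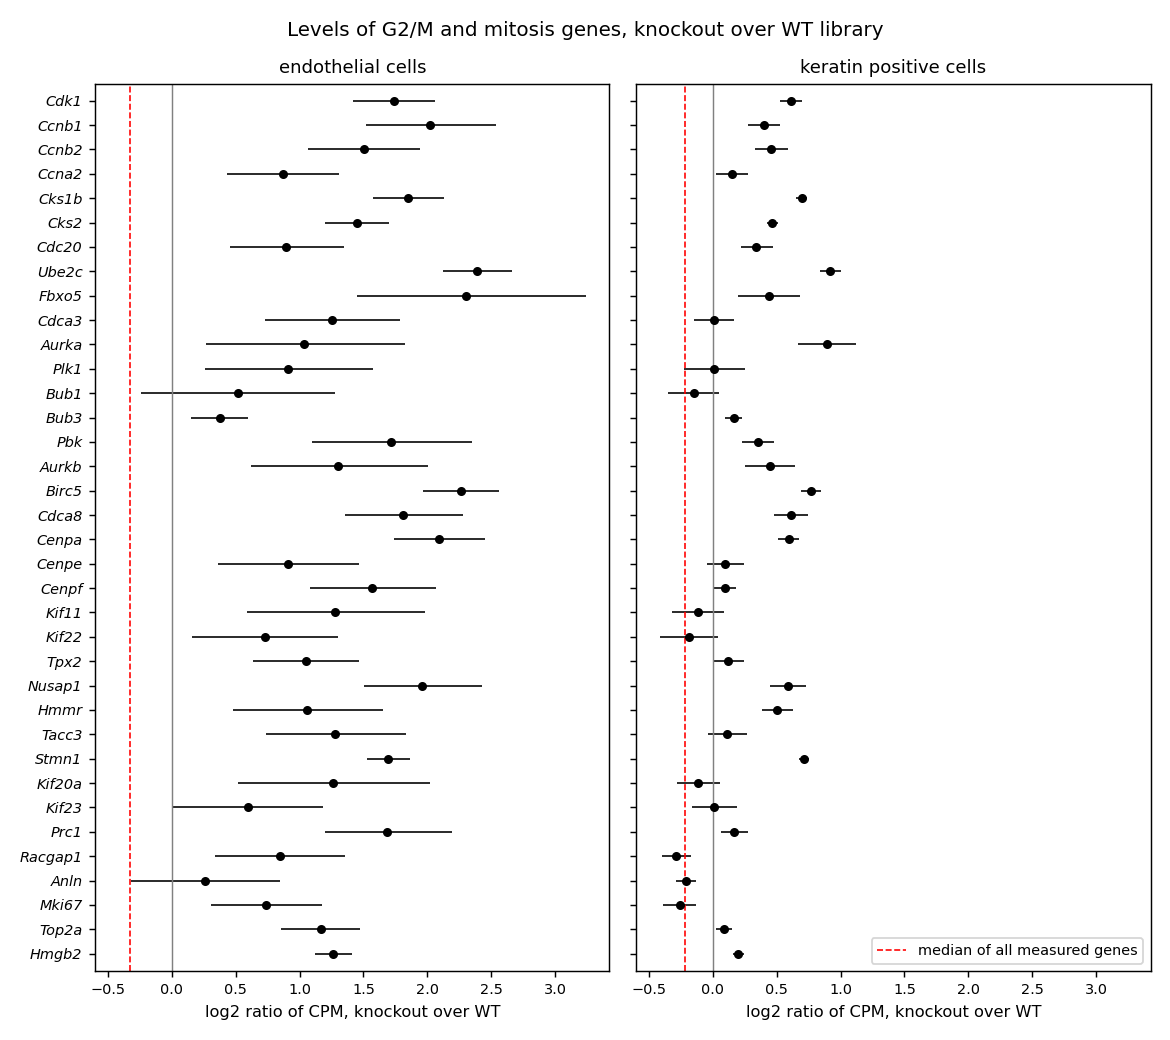
Log2 ratio of CPM, knockout over WT library, for each of the 36 genes (rows, in order of role) in endothelial cells and in keratin positive cells. Points are ratios, bars are 95% counting intervals and the dashed line is the median of all measured genes. Endothelial points run from 0.26 to 2.39, and keratin positive points from -0.29 to 0.92.

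The cyclins, their kinase and the small Cks subunits were all higher in knockout endothelial cells, 6 of 6 by at least 1.5-fold, with a median log2 ratio of 1.62. Cdk1, the kinase that drives entry into mitosis, was at 31.8 CPM in WT and 106 CPM in knockout endothelial cells. The log2 ratio was 1.74 (1.42 to 2.06), against 0.61 in keratin positive cells. Cks1b and Cks2 encode small proteins that bind the kinase and guide it to its substrates. Cks1b was at 41.6 CPM in WT and 150 CPM in knockout endothelial cells (log2 ratio 1.85). Cks2 was at 53.8 and 147 CPM (1.45). The B-type cyclin genes Ccnb1 (2.02) and Ccnb2 (1.501) stood above the A-type cyclin gene Ccna2 (0.87), which acts earlier, from S phase on. Reads of Ccna2 and its neighbour Exosc9 overlap in the genome, and the sources used here do not say whether counting used strand. In keratin positive cells the same 3 cyclin genes had log2 ratios of 0.40, 0.46 and 0.15, so Ccna2 was lowest there too.

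Genes of protein destruction at mitotic exit held the highest member in either class. Ube2c, the ubiquitin-conjugating enzyme of the anaphase-promoting complex, was at 39.2 CPM in WT and 205 CPM in knockout endothelial cells, a 5.23-fold difference (log2 ratio 2.39, 2.12 to 2.66). Of WT endothelial cells 4.42% held a Ube2c UMI, against 21.5% of knockout cells. Ube2c was also the highest member in keratin positive cells, at 37.1 and 70.1 CPM (log2 ratio 0.92). Fbxo5, also called Emi1, inhibits that complex until mitosis and was at 3.97 and 19.6 CPM in endothelial cells. Its ratio of 2.30 rested on 15 and 50 UMIs and spanned 1.45 to 3.24. Cdc20, which activates the complex at anaphase, was at 20.7 and 38.4 CPM (0.90), and Cdca3, a cell cycle adaptor of a ubiquitin ligase, at 13.5 and 32.2 CPM (1.25). The gene of Cdc20 overlaps Elovl1, which is also in both tables.

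Of the mitotic kinases and checkpoint genes, 3 of 5 were at least 1.5-fold higher in knockout endothelial cells, the smallest share of any role group, with a median of 0.91. Bub3, a checkpoint protein that docks on kinetochores and is needed in interphase too, was at 94.3 CPM in WT and 122 CPM in knockout endothelial cells (log2 ratio 0.38, 0.15 to 0.60). It was detected in 44.6% and 56.7% of them. Its checkpoint partner Bub1 was at 8.48 and 12.2 CPM (0.52, -0.24 to 1.28). Pbk, a mitotic kinase, was at 8.74 and 28.6 CPM (1.71), the highest of the group. Plk1, the Polo kinase of mitotic entry and spindle assembly, was at 9.80 and 18.4 CPM (0.91), and the centrosomal kinase gene Aurka at 6.89 and 14.1 CPM (1.04). The order was another in keratin positive cells: Aurka stood second of all 36 members (0.89), Pbk was at 0.35, and Plk1 (0.01) and Bub1 (-0.15) had intervals spanning 0.

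The chromosomal passenger complex corrects faulty attachments of chromosomes to the spindle, and its 3 members here were higher by at least 1.5-fold in knockout endothelial cells. Birc5, or survivin, which brings the complex to centromeres, was at 32.6 CPM in WT and 156 CPM in knockout endothelial cells. It was 4.79-fold higher (log2 ratio 2.26, 1.96 to 2.56) and was detected in 5.38% and 20.8% of cells. Cdca8, or borealin, was at 15.1 and 53.0 CPM (1.81), and the kinase gene Aurkb at 7.95 and 19.6 CPM (1.30). In keratin positive cells the ratios were smaller and in the same order, at 0.77 for Birc5, 0.61 for Cdca8 and 0.44 for Aurkb. At the centromere, Cenpa, the histone variant that marks it, was at 23.6 and 100 CPM in endothelial cells (2.09). Cenpf, a large kinetochore protein, was at 14.3 and 42.4 CPM (1.57), and Cenpe, the kinetochore motor, at 13.8 and 25.9 CPM (0.91). Among keratin positive cells Cenpa had a ratio of 0.59, while Cenpf and Cenpe were both at 0.09.

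All 7 spindle motors and assembly factors were at least 1.5-fold higher in knockout endothelial cells, with a median of 1.27. Stmn1, which destabilises microtubules and is held inactive in mitosis, was at 109 CPM in WT and 353 CPM in knockout endothelial cells (log2 ratio 1.69, 1.52 to 1.86). Nusap1, which bundles spindle microtubules, was at 14.8 and 57.7 CPM (1.96), and Tpx2, which activates Aurora A on the spindle, at 22.8 and 47.1 CPM (1.05). The tetrameric motor gene Kif11 (1.27), Tacc3 of the spindle fibres (1.28), Hmmr (1.06) and the chromosome motor gene Kif22 (0.73) completed the group. Kif22 has a near copy in the annotation, Kif22-ps, as do Ccnb1, Ccnb2 and Cks1b, and how their shared reads were counted is unknown. Of the same genes in keratin positive cells, Stmn1 (0.72), Nusap1 (0.59) and Hmmr (0.50) were the higher members of the group, and Kif11 (-0.12) and Kif22 (-0.19) lay below 0 with intervals that reached it.

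Genes of the central spindle and cytokinesis held the lowest member, with 4 of 5 at least 1.5-fold higher in knockout endothelial cells. Prc1, which crosslinks the microtubules between separating chromosomes, was at 13.5 CPM in WT and 43.5 CPM in knockout endothelial cells (log2 ratio 1.69). Racgap1, a subunit of centralspindlin, was at 16.2 and 29.0 CPM (0.85), and its motor partner gene Kif23 at 13.2 and 20.01 CPM (0.60, 0.00 to 1.19). Anln, an actin-binding scaffold of the contractile ring, was at 15.4 and 18.4 CPM, the smallest ratio of all members (0.26, -0.32 to 0.84). Kif20a, a motor of the central spindle whose gene overlaps Cdc23, had a ratio of 1.26. None of the 5 was at least 1.5-fold higher in keratin positive cells, and Racgap1 (-0.29) and Anln (-0.21) were 2 of the 3 members whose interval lay below 0 there. The third was Mki67 (-0.26). That gene encodes Ki-67, which coats mitotic chromosomes, and was at 22.8 and 38.1 CPM in endothelial cells (0.74). Top2a, the topoisomerase that untangles sister chromosomes, was at 38.7 and 86.7 CPM (1.16), and Hmgb2, a chromatin protein, at 166 and 397 CPM (1.26).

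A higher level in a class can come from more cells with the transcript or from more transcript in each such cell, and for most members the endothelial difference lay more in the former. For the level in detecting cells, in UMIs per 10000, the members' median log2 ratio was 0.02, with 18 members above and 18 below 0. A detecting cell holds at least 1 UMI, so this level has a floor. The level was not thinned, and median depth was 6219 UMIs in WT and 7273.5 UMIs in knockout endothelial cells. The median log2 ratio of the share of cells detected was 1.40, and the share ratio was above the level ratio in 35 of 36 members. Hmgb2 was the exception, with a level of 3.57 per 10000 in WT and 6.22 in knockout detecting cells. Stmn1 was split about evenly, with a share ratio of 0.86 and a level ratio of 0.84. Pbk (0.68), Nusap1 (0.66), Cks1b (0.64), Cenpa (0.61) and Ube2c (0.51) were also higher in level, and Hmmr (-0.84), Cenpe (-0.73) and Plk1 (-0.64) were lower. After each cell was thinned to 3000 UMIs, with 487 WT and 275 knockout cells deep enough, the share was higher in the knockout library for 35 members. The counting intervals of the 2 libraries were apart for 16 of them. Stmn1 was then detected in 15.6% of WT and 35.6% of knockout endothelial cells, Birc5 in 4.72% and 15.6%, and Cdk1 in 5.95% and 14.2%. Anln was the member not higher, at 3.08% and 2.91%. A share ratio above the level ratio was not particular to endothelial cells. It was found for all 36 members in keratin positive cells, and it was not counted over all genes.

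**Figure D2:**
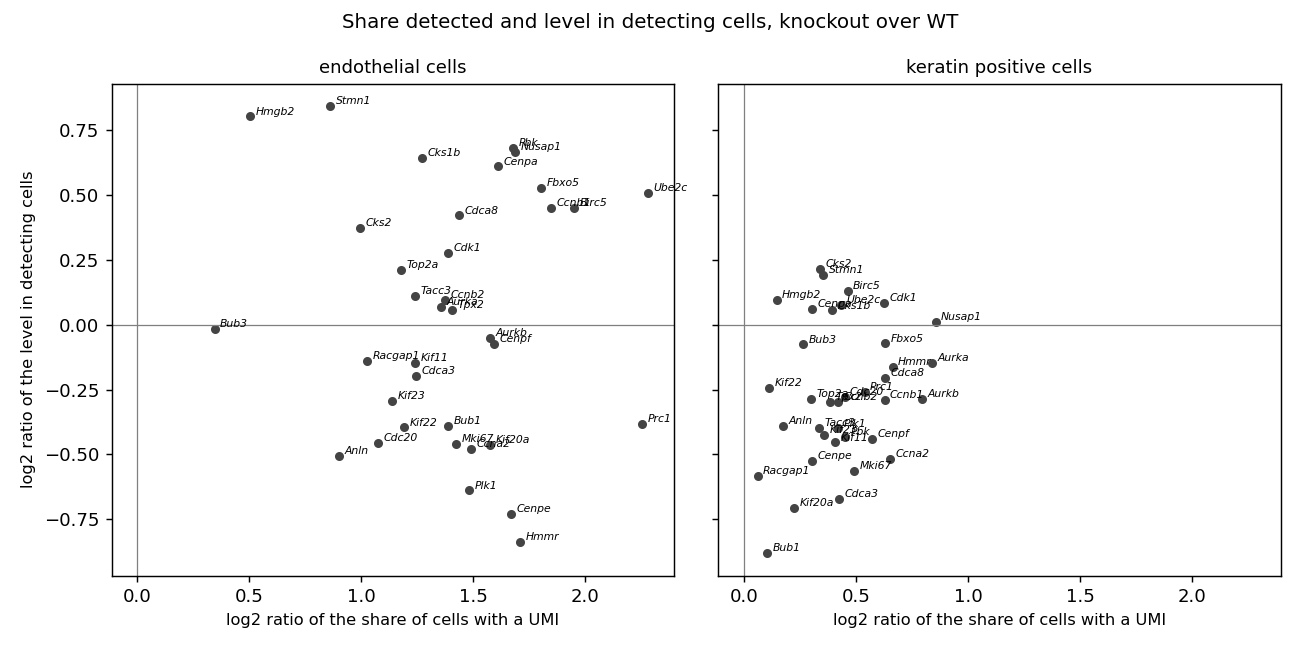
For each gene, the log2 ratio (knockout over WT) of the share of cells with a UMI on the horizontal axis and of the mean level in detecting cells on the vertical axis. In endothelial cells the points spread to the right around a level ratio of 0 (median 0.02), while in keratin positive cells most lie to the right of 0 and below it (medians 0.42 and -0.29).

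**Figure D3:**
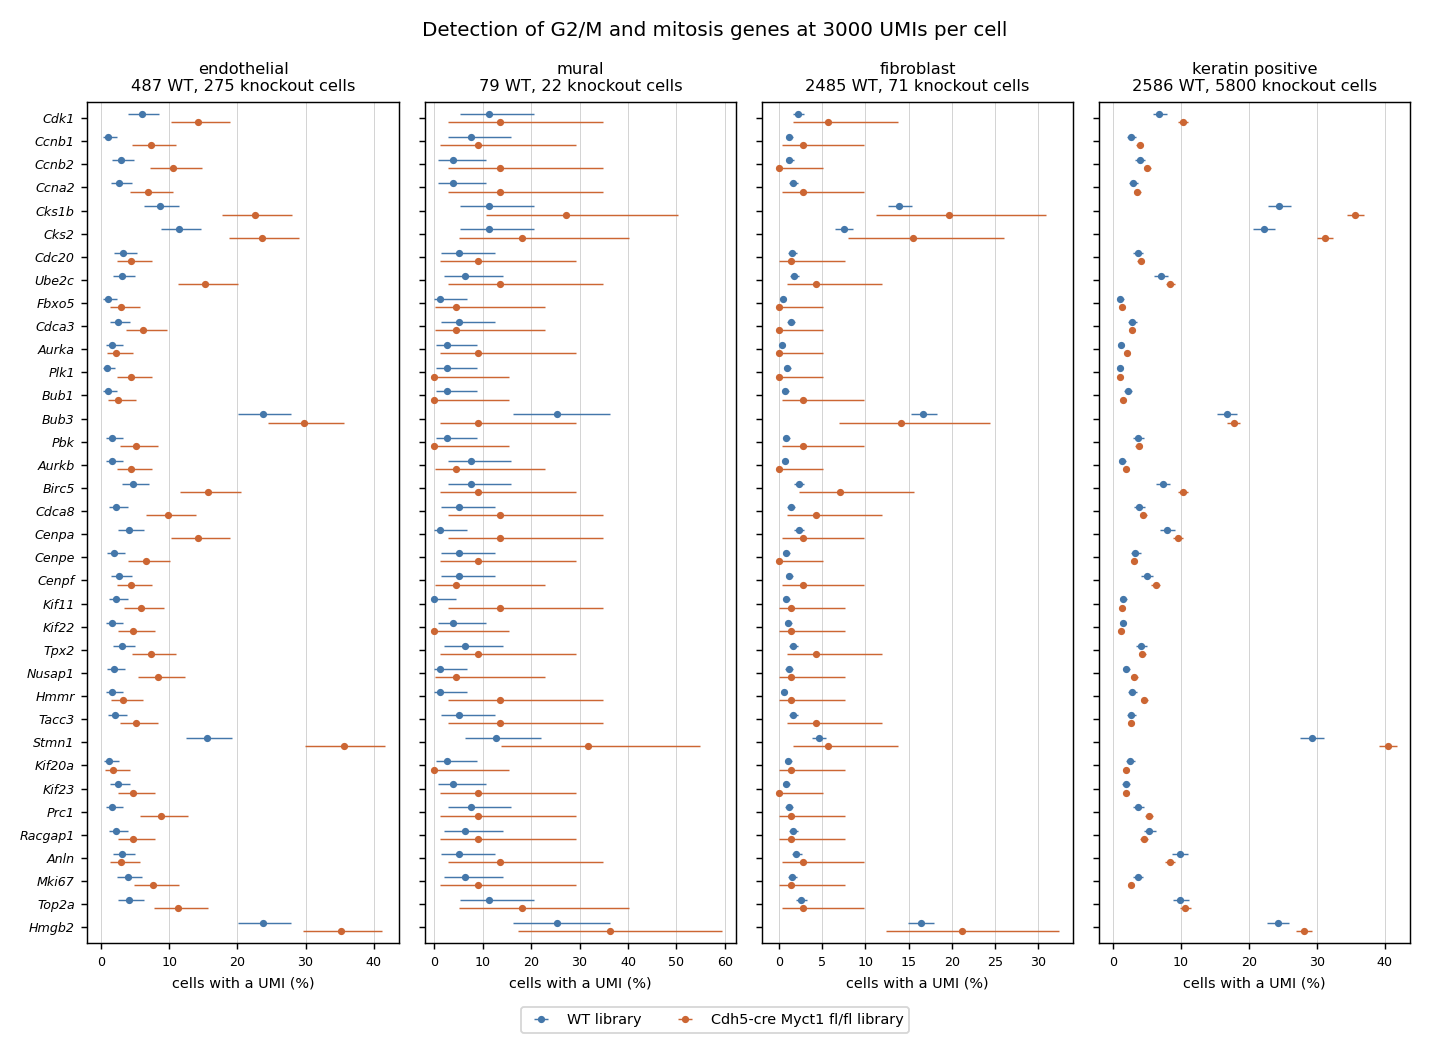
Share of cells with a UMI of each gene after thinning to 3000 UMIs per cell, in 4 cell classes and both libraries, with exact 95% intervals for counting error. Knockout endothelial shares lie above WT for 35 of 36 genes, and the mural and knockout fibroblast intervals are wide because those classes held 79, 22 and 71 cells.

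The extra detection was gathered in a minority of cells that held many members at once. At 3000 UMIs, 26 of 487 WT endothelial cells (5.34%, 3.52 to 7.72%) and 53 of 275 knockout endothelial cells (19.3%, 14.8 to 24.4%) held at least 5 of the 36 transcripts. At least 10 were held by 3.90% and 14.9%. The median cell held 1 member in both libraries, and 39.4% of WT and 22.5% of knockout cells held none. At exactly 5 members sat 1 WT and 2 knockout cells, and at exactly 4 sat 8 in each library. With a limit of 3 members the shares were 11.1% in WT and 28.7% in the knockout library, so both rose with a lower limit. Without thinning, the shares at 5 members were 10.96% and 30.2%.

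**Figure D4:**
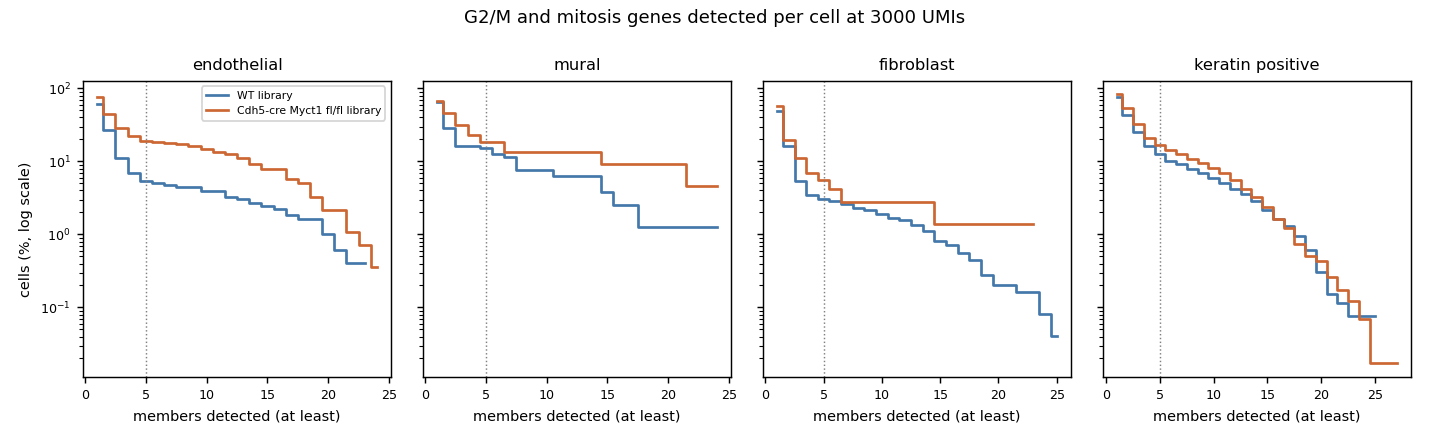
Percent of cells (logarithmic axis) in which at least the number of genes on the horizontal axis was detected at 3000 UMIs per cell, for 4 cell classes and both libraries. The knockout endothelial curve lies above the WT curve, with 19.3% against 5.34% of cells at the dotted line of 5 genes, while the keratin positive curves run close together (16.6% and 12.5%).

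These multi-member endothelial cells held a median of 13 (WT) and 12 (knockout) of the 14 endothelial markers, as did the remaining endothelial cells. Their median of Krt8 or Krt18 UMIs was 0. The class was gated on these markers and keratins, so both values were partly set by selection. Cdh5 was at 1436 CPM in them and 1740 CPM in the rest in WT, and at 802 and 1116 CPM in the knockout library. Pecam1 was at 1154 and 1488 CPM in WT and at 780 and 1071 CPM in the knockout library. The multi-member cells were deeper than the rest, with medians of 9852.5 against 6379 UMIs in WT and 10781 against 7254 in the knockout library. Their median doublet scores were 0.116 and 0.0724, against 0.0267 and 0.0378 in the rest. The part of depth and of doublets in these cells was not tested, and without doublet removal the endothelial median ratio was 1.19. Inside them members went in both directions. Among thinned cells with at least 5 other members, 17 of 36 members were higher in the knockout library, with a median log2 ratio of -0.11 (-1.71 to 1.75). The CPM of all members summed to 7819 in WT and 9060 in the knockout library. Nusap1 had the highest ratio (76.9 CPM in WT, 258 CPM in knockout cells) and Anln the lowest (205 and 62.9 CPM), each from 26 WT and 53 knockout cells. Mki67 was at 333 and 176 CPM and Ube2c at 462 and 918 CPM.

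Members differed in how far they were detected outside such cells, counted here in cells thinned to 3000 UMIs. Plk1, Bub1, Fbxo5 and Hmmr were detected in thinned endothelial cells only where at least 5 other members were present too, which rested on 4 to 8 WT and 7 to 12 knockout cells a gene. Without thinning, that share was 72.7% of 11 WT cells for Fbxo5, 93.3% of 15 for Plk1, 93.8% of 16 for Bub1 and 100% of 16 for Hmmr. Bub3 was the opposite, with 8.62% of its WT and 23.2% of its knockout detecting cells holding at least 5 others. Hmgb2 (19.8% and 46.4%), Stmn1 (27.6% and 48.0%), Cks2 (32.1% and 52.3%) and Cks1b (35.7% and 59.7%) lay between. In thinned cells with fewer than 5 other members, Stmn1 was at 44.1 CPM in WT and 106 CPM in knockout endothelial cells, Cks2 at 28.9 and 56.8 CPM, and Cks1b at 21.7 and 44.6 CPM. Bub3 (89.5 and 104 CPM) and Hmgb2 (78.6 and 102 CPM) were nearer to each other. So at this depth Stmn1, Cks1b and Cks2 were higher in knockout endothelial cells also outside the multi-member cells. Without thinning, more cells held at least 5 members (57 of 520 WT and 90 of 298 knockout). Keratin positive cells with fewer than 5 other members showed the same direction. Stmn1 was at 109 and 168 CPM there, Cks1b at 80.9 and 122 CPM, and Cks2 at 74.1 and 101 CPM. Longest transcripts of these 3 genes have 1060, 849 and 692 bases. The part of depth and length was not tested. The more mitosis-restricted members summed to few UMIs in endothelial cells with fewer than 5 others. Only 13 of the 36 could be measured in the endothelial class once cells with at least 5 members were left out. Of these, 7 were at least 1.5-fold higher (background 10%).

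The endothelial classes of the 2 libraries differed in how many cells held transcripts of 7 further genes. Earlier results of these data had shown a subset of endothelial cells with Acer2, Slco2a1, Tacr1, Cd300lg, Cd36, Rbp7 and Mcf2l, held mostly by the WT library. Cells with at least 2 of these 7 transcripts were 404 of 520 WT (77.7%) and 114 of 298 knockout endothelial cells (38.3%). The 7 genes came from these same libraries, so this split partly restates how they were chosen. Fewer cells of a subset and less of these transcripts per cell cannot be told apart here. Within that subset the difference was wider: 3.90% of 385 WT and 25.9% of 108 knockout cells held at least 5 members, and the members' median log2 ratio was 1.74 with 34 of 36 at least 1.5-fold higher (background 12.4%). Among cells with at most 1 of the 7 it was narrower, with 10.8% of 102 WT (5.51 to 18.5%) and 14.97% of 167 knockout cells (9.93 to 21.3%). The median there was 0.46, and 15 of 36 members were at least 1.5-fold higher (background 10.9%). Lymphatic endothelial cells, with at least 2 of 7 lymphatic markers, were 42 and 19 cells and held at least 5 members in 10% and 12.5% of those deep enough. Membership of the subset was called on unthinned counts. Median depth was 6182 UMIs in WT and 8565 UMIs in knockout subset cells. In cells with at most 1 of the 7 it was 6422 and 6944.5 UMIs. The part of this split in the whole-class ratio, and that of depth in the subset, was not tested beyond these values.

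Keratin positive cells gave the members' behaviour in the same libraries outside the endothelium. The median log2 ratio was 0.18, with 9 of 36 members at least 1.5-fold higher (background 6.63%) and 0 at least 1.5-fold lower (background 17.9%). The 9 were Ube2c, Aurka, Birc5, Stmn1, Cks1b, Cdk1, Cdca8, Cenpa and Nusap1. Shares and levels moved apart: the median share ratio was 0.42 (0.21 after thinning) and the median level ratio in detecting cells -0.29. That level was not thinned, and median depth was 14817 UMIs in WT and 16582 UMIs in knockout cells. The part of depth in it was not tested. Among thinned cells with at least 5 other members, the median log2 ratio was 0.05, with 19 of 36 members higher in the knockout library. At 3000 UMIs, 323 of 2586 WT cells (12.5%, 11.2 to 13.8%) held at least 5 members, and 963 of 5800 did so in the knockout library (16.6%, 15.7 to 17.6%). The direction of the low members rested on scaling. Set against the median of all measured genes (-0.22), 34 of 36 were above 0, with 15 at least 1.5-fold higher (background 15.4%).

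Set against the keratin positive cells, which were 74.1% of the cells kept from the knockout library, the endothelium stood differently in the 2 libraries. In WT the members' median log2 ratio of endothelial over keratin positive CPM was 0.06, where 2 members passed 1.5-fold upwards (background 34.9%) and 9 downwards (background 22.5%). In the knockout library it was 1.04, where 28 passed upwards (background 30.2%) and Anln downwards (0.452-fold, background 23.4%). The endothelial knockout-over-WT ratio was above the keratin positive one for all 36 members, by a median of 1.07 on the log2 scale (0.14 for Aurka to 1.87 for Fbxo5). That difference was not counted over all genes. Their median knockout-over-WT log2 ratio was -0.33 in endothelial and -0.22 in keratin positive cells. Transcripts of other cells in a droplet give a measure of free RNA. Hmga2 and Lgals7, transcripts of the keratin positive cells, were present in knockout endothelial cells at 5.97% and 3.36% of their keratin positive level, and in WT endothelial cells at 1.26% and 1.40%. Knockout endothelial cells held the 36 members at 0.452 (Anln) to 4.50 (Kif22) times the keratin positive level. Within the knockout endothelium, multi-member cells had 18.1 CPM of Hmga2 and 57.5 CPM of Lgals7, against 37.03 and 39.1 CPM in the remaining cells.

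Mural cells were few, and their knockout values rested on a handful of cells. Of 30 measured members 16 passed 1.5-fold upwards (background 12.4%) and 1 downwards (background 36.1%), and their median log2 ratio was 0.73. That median moved with the choice of cells, to 0.20 without the upper limit on Krt8 and Krt18 UMIs, 0.29 where more markers were required and 1.34 where fewer were. Ube2c was at 74.0 CPM in WT and 374 CPM in knockout mural cells (2.34), Hmmr at 16.6 and 102 CPM (2.62) and Cenpa at 39.2 and 128 CPM (1.70). The lower member, Kif22, had 19 and 3 UMIs. The 5 richest of 25 knockout mural cells held 93.2% of all member UMIs, against 54.5% for the 5 richest of 96 WT cells. At 3000 UMIs 12 of 79 WT (15.2%, 8.10 to 25.0%) and 4 of 22 knockout cells (18.2%, 5.19 to 40.3%) held at least 5 members. The counting intervals overlapped, and the difference was not tested. In WT the mural class stood above the endothelial class for 35 of 36 members (50.4% of all genes), by a median of 1.13, and Kif23 was the exception. In the knockout library that median was 0.36, with 25 of 36 above (47.8% of all genes).

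Among fibroblasts 23 of 36 measured members passed 1.5-fold upwards (background 16.9%) and 1, Cenpe, downwards (background 22.7%). Their median log2 ratio was 0.87, and it was 0.40 without the keratin limit, 0.44 in thinned cells and 1.69 where fewer markers were required. Ccnb1 had the highest ratio, with 8.58 CPM in WT and 59.6 CPM in knockout fibroblasts (2.80). It came from 53 UMIs in 5 knockout cells, and 1 cell held 39 of them. Ube2c was at 15.9 and 62.9 CPM (1.98). The 5 richest knockout fibroblasts held 75.6% of all member UMIs, against 12.6% for the 5 richest WT cells. At 3000 UMIs 76 of 2485 WT fibroblasts (3.06%, 2.42 to 3.81%) and 4 of 71 knockout fibroblasts (5.63%, 1.56 to 13.8%) held at least 5 members. These counting intervals overlapped, and the difference was not tested. Without the shared barcodes the median ratio was 0.90 and the count 23 of 36. WT fibroblasts were the class with the lowest members: 25 of 36 were at least 1.5-fold below WT endothelial cells (background 33.9%). The members' median log2 ratio of fibroblast over endothelial CPM was -0.91, against -0.27 over all genes, and Cks1b was the member above 0.

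Ratios over all genes followed transcript length, and the members were read against that trend. In endothelial cells the median log2 ratio of all genes went from 0.42 for transcripts under 1000 bases to -0.76 for those of 8000 bases or more. The 10 members under 2000 bases had a median of 1.47 and the 10 of at least 4000 bases 0.98, against 0.31 and -0.66 over all genes of those lengths. Relative to genes of like length the member median was 1.45, with all 36 at least 1.5-fold higher (background 16.2%). Mki67, whose longest transcript has 10061 bases, was at 0.74 by total scaling and at 1.52 relative to genes of like length. The same step in keratin positive cells took Mki67 from -0.26 to 0.17 and Racgap1 from -0.29 to 0.10.

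Other genes of the cell cycle were counted by the same rule, against the same background. In endothelial cells that was 11.6% of all genes upwards and 35.4% downwards. Among 46 other mitosis genes measured in the endothelial class, 33 passed 1.5-fold upwards and 1 downwards, and their median was 1.03. Of the 4 with the most UMIs, the condensin gene Smc2 was at 1.18, while its partner Smc4 was at 0.21, the histone chaperone gene Anp32e at 0.26 and Hjurp, which encodes the chaperone of Cenpa, at -0.83. Hjurp was the lower gene of the list and was detected in 42.9% of WT and 30.9% of knockout endothelial cells. Among 35 DNA replication and S-phase genes, 15 passed upwards and 0 downwards, and their median was 0.47. Tyms (1.08) and Dut (1.16), enzymes of thymidine supply, were among the 15, and Slbp (0.35) and the sliding clamp gene Pcna (-0.20) were not. Of 9 genes of G1 cyclins and their kinases 0 were past 1.5-fold in either direction, with Cdk4 at 0.46 and Ccnd1 at -0.52, and of 9 tubulins 4 were higher, with Tubb4b (1.04) among them and Tubb5 (0.38), which had the most UMIs, not. Among 16 inhibitors and genes of quiescence, 2 passed upwards (background 11.6%) and 7 downwards (background 35.4%), and their median was -0.29. Both counts and the median lay near those of all genes. Klf4 was at 411 CPM in WT and 235 CPM in knockout endothelial cells (-0.80), Klf2 at 616 and 521 CPM (-0.24), Btg1 at -0.16 and Cdkn1a, the inhibitor p21, at 273 and 270 CPM (-0.02). For comparison, in the keratin positive class 2 of 48 other mitosis genes passed upwards and 2 downwards (median -0.05), as did 5 and 0 of 35 S-phase genes (median 0.14). The background in that class was 6.63% upwards and 17.9% downwards.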

How the data were processed

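Tumours of 4 mice per genotype were pooled, digested and made into 1 droplet library each with the version 1 Chromium 3′ kit, per the labels' protocols. The authors deposited raw UMI counts of genes by barcode, made with Cell Ranger 2.1.1 and mm10 per the submitters' processing notes; the sources used here name neither the annotation nor the strand setting. Each table held genes reaching at least 4 UMIs in some barcode, so a gene not listed had at most 3 in any. The WT table held 10880 barcodes and 115519153 UMIs, and the knockout library 10700 and 145331950.

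Cells with at least 200 detected genes, at most 10% mitochondrial UMIs and a doublet score of at most 0.3 were kept (7859 WT, 7972 knockout). The score was a nearest-neighbour score against simulated pairs, written anew. A class needed at least 5 endothelial, 5 fibroblast or 4 mural markers and under 400 Krt8 plus Krt18 UMIs per 1000000. Keratin positive cells had both keratins, at least that level and at most 2 markers of every other class. Cells between classes were left out.

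Counts were summed per class and library. Ratios carry exact conditional binomial intervals, shares exact Clopper-Pearson intervals. A gene was measured where its UMIs in both libraries summed to at least 20, and 1.5-fold served in place of a test. Thinning drew 3000 UMIs per cell without replacement. Named members were, per role group, the 3 with the most endothelial UMIs, and the 3 highest and lowest ratios in endothelial and keratin positive cells; of each other list, up to 4 genes with the most UMIs. Members, lists, markers and rules were chosen with earlier results of these data known. Ratios and their intervals were tested on simulated class sums of independent counts, which hold no gathering of UMIs in few cells. Python 3.11.15, numpy 2.4.6 and scipy 1.17.1 were used.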

Additional observations from a re-analysis of the deposited data

Results flagged for a closer look

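In 2 members the knockout library was higher than the WT library in endothelial cells and lower in keratin positive cells, with both counting intervals clear of 0. Racgap1 had a log2 ratio of 0.85 in endothelial and -0.29 in keratin positive cells, and Mki67 of 0.74 and -0.26. The keratin positive values were -0.07 and -0.04 relative to the median of all measured genes and 0.10 and 0.17 relative to genes of like length, so their direction rests on the scaling, while the endothelial values stayed above 0 under each. The difference between the classes was not tested, since each genotype had 1 library. A further signal lay in cells that no comparison used: of cells with no class, 13.8% of 1300 in the knockout library (11.9 to 15.8%) and 12.1% of 1245 in WT held at least 5 members at 3000 UMIs.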

How the results depend on the processing

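In endothelial cells the members' median stayed between 0.46 and 1.74 and above 0 under every alternative run. The value moved in cells with at most 1 gene of the vessel subset, with a median of 0.46, 15 members at least 1.5-fold higher and a share difference of 4.19 percentage points; within the subset that difference was 22.0 points. Without cells holding at least 5 members, the number of members at least 1.5-fold higher was 7 of 13 in endothelial, 2 of 5 in mural, 9 of 28 in fibroblast and 3 of 36 in keratin positive cells (10%, 15.1%, 17.2% and 7.76% of all genes), and the keratin positive median turned to -0.048. Share differences at 5 members without thinning were 19.2 points (endothelial), 4.15 (fibroblast) and 13.4 (keratin positive). With a limit of 3 members they were 17.6, 5.83 and 6.94 points in the same order. With 8 members they were 6.04 points in mural, 0.483 in fibroblast and 3.04 in keratin positive cells. The stricter gate turned the mural share difference to -3.84 points and gave 3.65 points and 5 higher members in keratin positive cells. Mural share differences were 15.4 points with 3 members, 10.3 without thinning, 8.47 at 2000 UMIs and 6.79 without the 5 genes also transcribed outside mitosis, against 2.99 as reported. The fibroblast difference of 2.58 points fell to 0.0497 at 2000 UMIs and 0.282 without those genes, and its median to 0.276 without cells holding at least 5 members. The looser gate, with fewer markers and the keratin level at 200, gave a fibroblast median of 1.69 with 35 of 36 members higher. Without the keratin limit the higher members were 7 of 33 measured in mural and 11 of 36 in fibroblast cells. At 50 UMIs 9 of 13 measured mural members were higher, against 16 of 30 as reported. With sums of thinned cells 5 of 6 measured mural and 15 of 33 measured fibroblast members were higher. In keratin positive cells the median was 0.41 relative to the median of all genes and 0.41 with TMM scaling. In both, 15 of 36 members were higher (15.4% and 15.5% of all genes). Relative to genes of like length the keratin positive median was 0.33. The keratin positive share difference was 3.17 points at 2000 UMIs and 2.55 points without Stmn1, Hmgb2, Bub3, Cks1b and Cks2. The cause of these shifts was not tested. The alternatives that left out shared barcodes, separated the vessel subset or left out lymphatic cells were chosen after the data were seen. No paired analysis was possible because each genotype had 1 library. Low numbers of mural and knockout fibroblast cells limit those classes.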
